A study of Mus musculus with 32 samples.

Results

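Cytochrome P450 enzymes are haem proteins of the endoplasmic reticulum and mitochondria that insert oxygen into small molecules, with electrons passed to them by P450 reductase or by the adrenodoxin chain. Members of families 1 to 3 oxidise drugs, pollutants and steroids and are best known from hepatocytes, while other members make or break bile acids, steroids, vitamin D, retinoic acid and fatty acid signals in the kidney, adrenal gland, lung and other organs. The P450 genes described here were all 97 protein-coding genes in the files whose GENCODE M21 symbol begins with Cyp and a number, out of 25058 genes present in the files of every assay. They comprised 3 genes of family 1, 39 drug-metabolising genes of family 2, 9 of family 3, 27 genes of fatty acid metabolism, 6 of bile acid and oxysterol metabolism, 6 of steroid and sterol synthesis, 3 of vitamin D metabolism, 3 of retinoic acid breakdown, and Cyp20a1, whose substrate is not settled.

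The mice were wild-type C57BL/6J females, 6 to 7 months old. They received 1 intraperitoneal dose of cisplatin (10 mg/kg), a platinum drug that links neighbouring guanines in DNA, or the same volume of saline, at Zeitgeber time 1 (1 h after lights on) and were killed at Zeitgeber time 5, while the sample field for the time after treatment reads 2 h. Kidney, liver, lung and spleen were each assayed by Damage-seq, which reads where adducts remain, by XR-seq, which sequences the excised oligomers of nucleotide excision repair, and by RNA-seq. Each organ had 2 cisplatin libraries per assay, and 2 control libraries in RNA-seq alone, 32 libraries in all. Damage-seq held 1571167 to 6441367 reads on genes per library, XR-seq 10658675 to 59779770 and RNA-seq 15612743 to 162268216. The lung control pair and the spleen control pair lay close together, with a chi-square per degree of freedom over genes of 2.75 and 2.98 against 39.3 to 349 in the other RNA-seq pairs, and each was counted as 1 sample. Both still differed by more than sampling noise, which gives about 1. The methods describe biological replicates in pairs, and the labels name no animal. The lung and spleen RNA-seq libraries carry labels that were exchanged between control and cisplatin in a later correction, and under the earlier labels the sign of every lung and spleen RNA change given here would turn. The lung and spleen control levels given here, also where set against liver, would then be levels of cisplatin libraries. As a check of the labels, 6 target genes of p53, which cisplatin damage is known to activate, were read in each library, chosen after the other results were known. Cdkn1a, the best known of them, lay above both controls in both cisplatin libraries of each organ, at 42.2 and 40.3 against 141 and 165 RPKM in lung (1.90 ± 0.20 on the log2 scale, adjusted p = 0.0189) and at 3.72 and 3.75 against 11.1 and 9.61 in spleen (adjusted p = 0.368). Both cisplatin libraries were above both controls for 5 of the 6 genes in kidney, in liver and in lung, and for 3 in spleen, where Mdm2 lay below. Summed marker genes of proximal tubule, hepatocytes, alveolar type 2 cells and B cells were each highest in the organ of their label. In such whole organs, fewer cells of a type and less RNA per cell cannot be told apart.

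Much of the family lies in tandem clusters of close relatives. The one with most genes holds 14 Cyp2c genes at chr19:39007019-40187333 (mm10), followed by 13 genes of subfamilies 2a, 2b, 2f, 2g, 2s and 2t at chr7:25802475-27158668. A further 8 genes each lie in clusters of Cyp2d genes (chromosome 15), Cyp4f genes (17), Cyp3a genes (5), Cyp2j genes (4) and Cyp4a, Cyp4b and Cyp4x genes (also 4). Reads from near-identical neighbours, such as Cyp3a41a and Cyp3a41b, Cyp4a12a and Cyp4a12b or Cyp2a4 and Cyp2a5, can be split or lost in counting, so values of such pairs are uncertain.

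Promoter sequences are shown for the genes on which the expression results turn. They were taken from RefSeq (GRCm38.p6, 250 bases before to 50 bases after each start). Of the 97 members, 75 were in that table, with 85 promoters, and 22 were not. A motif of HNF4A, a main transcription factor of hepatocytes, searched as CAAAGTCCA on both strands, was in 11 of the 85 P450 promoters (12.9%) against 0.475% of all 32851 promoters of the same length. Of these 11 genes, 10 were among those called higher in liver than in each other organ by RNA-seq, as given with the control levels. The other, Cyp2c65, had too few reads to test. Of all 88 members tested there, 47 (53.4%) were so called. The 11 segments follow with the motif in capitals, each on the strand of its gene, to show how closely neighbours repeat one another: the Cyp3a16, Cyp3a41a and Cyp3a41b segments are identical. Cyp3a16 is at chr5:145469804-145469832, Cyp8b1 at chr9:121916354-121916382 and Cyp2c70 at chr19:40187332-40187360, all on the minus strand.
Cyp3a16: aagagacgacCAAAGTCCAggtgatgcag
Cyp3a41a: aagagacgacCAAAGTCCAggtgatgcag
Cyp3a41b: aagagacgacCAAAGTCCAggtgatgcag
Cyp3a11: aagagagtacCAAAGTCCAgtgatgcaaa
Cyp8b1: agcctctgagCAAAGTCCAagggcaggaa
Cyp2c65: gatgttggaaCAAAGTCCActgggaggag
Cyp2c67: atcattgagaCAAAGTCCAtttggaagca
Cyp2c68: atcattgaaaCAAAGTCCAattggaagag
Cyp2c40: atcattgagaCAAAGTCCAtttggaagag
Cyp2c69: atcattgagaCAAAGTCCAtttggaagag
Cyp2c70: aggtcaaactCAAAGTCCAaactctgtgt

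A PAR bZip and NFIL3 type motif, TTATGNAA on either strand, was in 7 of the 85 promoters (8.24%, against 3.38% of all). Cyp2a5, a coumarin hydroxylase and the P450 gene called after cisplatin in kidney, was 1 of these. The stretch upstream of its GENCODE start, chr7:26835089-26835304 on the plus strand, is shown with the match, read on the opposite strand, in capitals.
Cyp2a5: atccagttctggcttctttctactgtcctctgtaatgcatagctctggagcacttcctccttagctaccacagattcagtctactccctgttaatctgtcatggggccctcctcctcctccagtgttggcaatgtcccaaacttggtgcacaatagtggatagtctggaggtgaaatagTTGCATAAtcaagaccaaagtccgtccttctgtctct
The same letters surround the match in the promoter of its near-copy Cyp2a4 (chr7:26307112-26307139, plus strand), shown because the RNA of these neighbours behaved differently in kidney.
Cyp2a4: ggtgaaatagTTGCATAAtcaagaccaa
The core of the xenobiotic response element bound by the aryl hydrocarbon receptor, GCGTG on either strand, was in 18 of the 85 promoters (21.2%, against 32.4% of all), among them that of Cyp1a1 (chr9:57697549-57697573, plus strand), and the E-box CACGTG was in 2 (2.35% against 7.15%). A match is a description of letters and not of a bound site.
Cyp1a1: agataaggagGCGTGgccaacagac

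In control RNA-seq, the liver carried most of the P450 message. Levels are given as RPKM, read counts scaled by exon length and by the reads on genes of the library. P450 genes took 2.34 to 2.51% of the liver reads, 0.515 to 0.623% of those of kidney, 0.424 to 0.594% of those of lung and 0.048 to 0.063% of those of spleen, cisplatin libraries included. At a mean of at least 10 RPKM there were 49 P450 genes in liver, 17 in kidney, 11 in lung and 7 in spleen. The 3 highest genes differed by organ. In liver they were Cyp2e1, the ethanol-inducible P450, at 2772 and 1869 RPKM, Cyp2d26 at 676 and 701, and Cyp2a4 at 428 and 908. In kidney they were Cyp2j5, an arachidonic acid epoxygenase, at 634 and 594 RPKM, Cyp4b1 at 220 and 259, and Cyp4a10, a fatty acid omega-hydroxylase, at 167 and 287. In lung, Cyp2f2, the naphthalene-oxidising P450 of club cells, reached 1221 and 1202 RPKM, ahead of Cyp4b1 at 263 and 261 and Cyp2b10 at 155 and 154. In spleen the highest were Cyp4f18, a leukotriene-metabolising P450 of leukocytes, at 27.5 and 27 RPKM, Cyp1b1 at 25.0 and 25.0, and Cyp27a1 at 14.4 and 14.7.

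**Figure D1:**
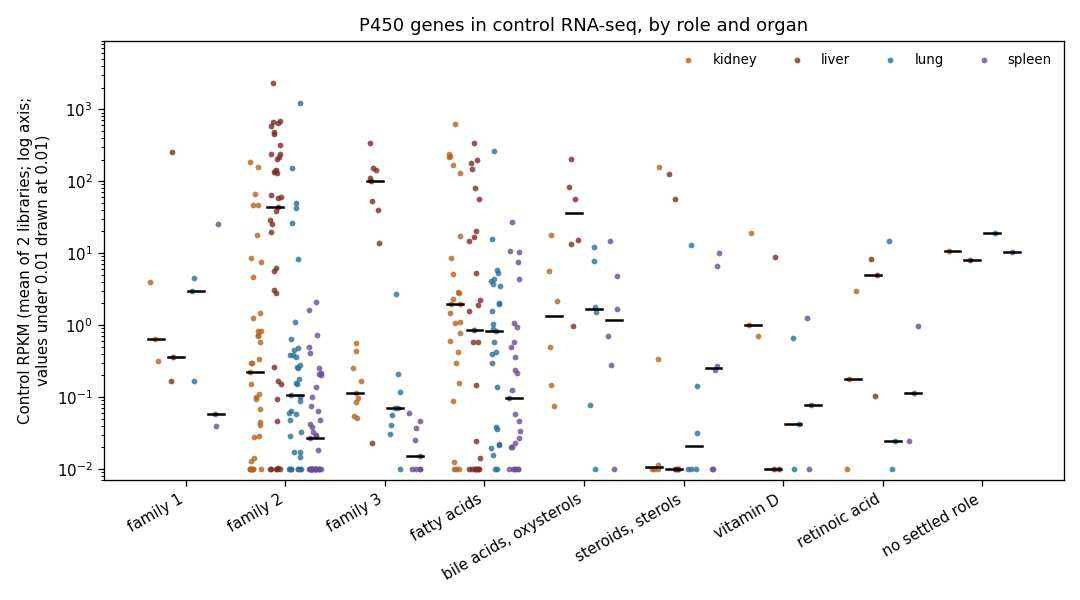
Mean control RPKM of each P450 gene (log axis), grouped by role along the horizontal axis and coloured by organ, with a black bar at the median of each role and organ. The liver medians stand highest for families 2 and 3 and for bile acid genes, and the highest point of each organ is Cyp2e1 in liver, Cyp2f2 in lung, Cyp2j5 in kidney and Cyp4f18 in spleen.

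Liver was compared with each other organ in 1 edgeR quasi-likelihood fit over all RNA-seq samples, testing for a change beyond 0.4 on the log2 scale at a Benjamini-Hochberg adjusted p under 0.05 over all genes. Of 88 P450 genes with enough reads, 47 (53.4%) were higher in liver than in each of the other 3 organs, against 6.68% of the 19099 genes tested. The filter keeps a gene that is high in any single organ, and 9 members were too low to test. By subfamily the liver calls took in 12 of the 14 genes of the Cyp2c cluster and 7 of the 8 of the Cyp3a cluster, but 1 of 8 in the Cyp2j cluster and 1 of 8 in the Cyp4a, Cyp4b and Cyp4x cluster. Cyp2e1 was higher in liver by 5.97 ± 1.04 (log2 difference ± SE) against kidney, where it stood at 57 and 76.6 RPKM. Genes of the opposite kind were Cyp1b1 and Cyp2s1, called lower in liver than in each other organ, Cyp1b1 by 6.15 ± 0.56 against spleen with liver at 0.142 and 0.191 RPKM. Cyp2s1, a P450 of epithelia, was at 50.2 and 49.4 RPKM in lung and at 0.109 and 0.192 in liver.

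The genes of bile acid synthesis stood apart by organ as well. Cyp7a1, the rate-limiting enzyme of the classical pathway, was at 98.6 and 15.6 RPKM in liver and at most 0.124 RPKM in any control library of the other organs. Cyp8b1, which sets the share of cholic acid, was at 62.5 and 104 RPKM in liver and at most 1.72 elsewhere. Cyp27a1, the mitochondrial sterol 27-hydroxylase, was more widely read, at 195 and 212 in liver, 18.2 and 17.7 in kidney, 7.79 and 7.80 in lung and 14.4 and 14.7 in spleen. All 6 genes of this role were higher in liver than in kidney by the test, Cyp7b1 by 3.54 ± 0.38 and Cyp39a1 by 2.35 ± 0.38. The liver controls of Cyp7a1 differed several-fold from each other, which no other bile acid gene matched in RPKM.

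Vitamin D, steroid and retinoic acid genes were highest in different organs. Cyp17a1, the 17-hydroxylase of steroid synthesis, at 114 and 135 RPKM in liver, Cyp26a1, which degrades retinoic acid, at 3.09 and 13.7, and Cyp2r1, the vitamin D 25-hydroxylase, were called higher in liver than in each other organ. Cyp24a1, which inactivates vitamin D, was at 26.3 and 11.6 RPKM in kidney, listed at 0.0 and 0.0116 in liver and under 0.05 elsewhere. Cyp27b1, which makes active vitamin D, was at 0.845 and 1.13 RPKM in kidney and under 0.1 in every other control library. Cyp2r1 was at 8.63 and 9.08 in liver against 0.783 and 0.618 in kidney. Cyp51, the lanosterol demethylase of cholesterol synthesis, was at 162 and 154 in kidney and 51.4 and 60.8 in liver, and it overlaps Akap9 on the other strand. The adrenal steroid genes Cyp11a1 and Cyp11b1 stayed under 0.3 RPKM in every control library, while Cyp21a1 read 6.98 and 6.30 in spleen and at most 0.017 elsewhere. Cyp26b1, which also degrades retinoic acid, was at 14.8 and 14.6 in lung and 1.01 and 0.931 in spleen. Cyp20a1 was read in every organ, between 7.26 and 19.9 RPKM over all control libraries.

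Of genes known for female-biased expression in liver, Cyp2c69 was at 467 and 501 RPKM, Cyp3a44 at 316 and 353, and Cyp2b9 at 219 and 257. Of genes known for male-biased expression, Cyp4a12a was at 0.0 and 0.017 RPKM, Cyp4a12b had no read in either control, and Cyp2d9 was at 2.64 and 3.54. These 6 genes were chosen after their values were seen, and no list of such genes was tested.

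The effect of cisplatin on RNA was tested per organ with edgeR (log2 change beyond 0.4, adjusted p under 0.05). With a block on replicate number, more P450 genes and more of all genes were called in kidney, liver and lung, as given with the dependence on processing. In kidney 1 of 63 tested P450 genes was called (1.59%), against 5.05% of all genes. The called gene was Cyp2a5, which stood at 16.8 and 18.7 RPKM in the controls and at 71.6 and 37.8 after cisplatin. Both cisplatin libraries lay above both controls, with a log2 change of 1.66 ± 0.30 (adjusted p = 0.0457). Its near-copy Cyp2a4 read 170 and 200 in controls and 185 and 201 after cisplatin, and the groups overlapped (0.11 ± 0.19, adjusted p = 0.987). The Cyp2a5 call was lost without cisplatin replicate 1 (1.16, adjusted p = 0.211) and in the fit over all organs (adjusted p = 0.503), and 2 to 5 P450 genes were called when any other single library of kidney was left out.

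Cyp27b1 moved by as much in kidney, from 0.845 and 1.13 to 4.43 and 2.39 RPKM (1.80 ± 0.39), and its adjusted p was 0.0679. It passed with DESeq2 (adjusted p = 0.0282), without the filter on low counts, when tested against 0 and with a block on replicate number. It did not pass in edgeR with DESeq2 size factors or in the fit over all organs. It lies past the threshold or short of it depending on such choices. Cyp1b1, an oestrogen and hydrocarbon hydroxylase, read 2.98 and 4.94 in kidney controls and 5.83 and 9.52 after cisplatin (adjusted p = 0.271). The abundant kidney genes Cyp2j5 (519 and 488 after cisplatin) and Cyp4b1 (199 and 212) lay somewhat below their controls, by -0.23 ± 0.15 and -0.17 ± 0.19, neither past the threshold. Cyp4a10 and Cyp24a1 overlapped between groups, Cyp24a1 at 26.3 and 11.6 against 16.6 and 22.9. The median log2 change of the tested P450 genes was -0.17 in kidney against -0.003 over all genes tested.

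Low liver-type P450 messages in kidney lay below their controls together with hepatocyte markers. Cyp2a12 read 0.299 and 0.300 in kidney controls and 0.0371 and 0.0543 after cisplatin (adjusted p = 0.0761). Cyp2b9 read 1.08 and 0.552 against 0.205 and 0.130 (adjusted p = 0.110). The 8 hepatocyte markers summed to 116 and 158 RPKM in kidney controls and 66.9 and 72.8 after cisplatin, 1 of them called lower, and albumin was at 48.2 and 72.4 against 27.9 and 19.1. The part of liver RNA in these values was not tested. Cyp2a12 was chosen after its values were seen, as was Cyp2b9.

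**Figure D2:**
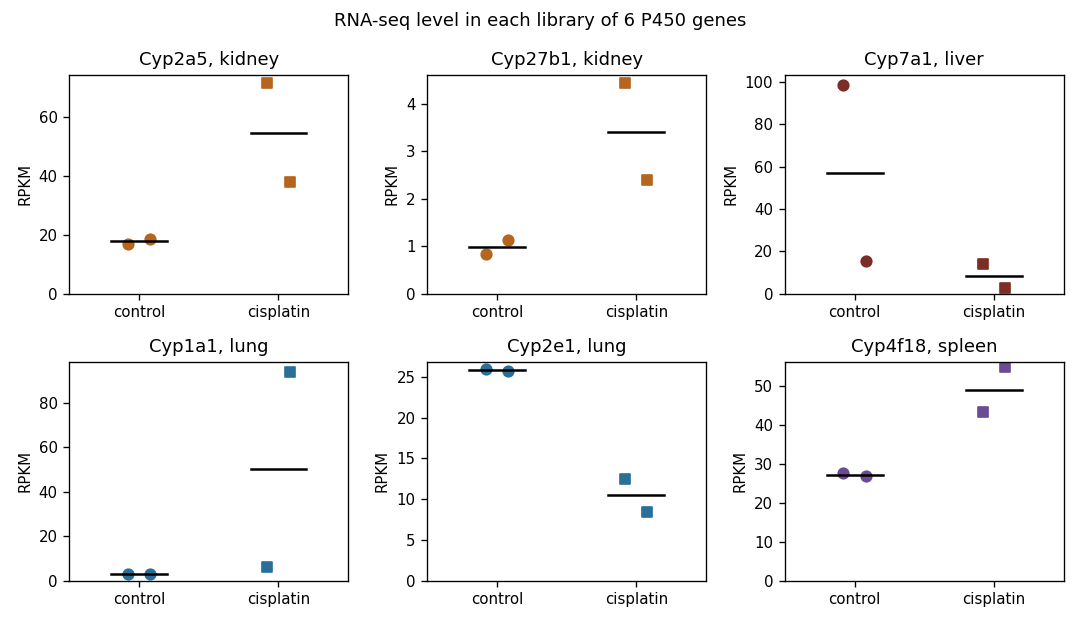
RPKM in each control (circles) and cisplatin (squares) library for 6 P450 genes, each panel on its own linear axis from 0, with a bar at the mean of the 2 libraries. The Cyp1a1 rise in lung rests on 1 library at 94.1 RPKM, while Cyp2a5 in kidney lies above both controls in both libraries.

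In liver 0 of 71 tested P450 genes were called, where 0.0% of all genes were, and 1 member (1.41%) was under an unadjusted p of 0.05, as were 9.09% of all genes. That gene was Cyp7a1, at 98.6 and 15.6 RPKM in controls and 14.3 and 2.54 after cisplatin (-2.77 ± 0.92, adjusted p = 0.406). Both cisplatin libraries lay below both controls, though the lower control and the higher cisplatin library were close. Among the PPAR-alpha target genes, Cyp4a14 read 158 and 200 in controls and 427 and 291 after cisplatin (0.99 ± 0.41, adjusted p = 0.627), and Cyp4a10 read 113 and 178 against 179 and 303 (adjusted p = 0.846). Cyp2e1, Cyp1a2 and Cyp8b1 overlapped between groups. Without cisplatin replicate 1 of liver 3 genes were called, and without cisplatin replicate 2 or control replicate 2 it was 1. Summed over the 47 genes higher in liver, the liver libraries held 8709 and 7851 RPKM in controls and 8508 and 8079 after cisplatin.

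In lung 0 of 70 tested P450 genes were called, against 2.16% of all genes. An unadjusted p under 0.05 was found for 11 (15.7%), against 13.1% of all genes. Cyp2e1 read 26 and 25.8 RPKM in controls and 12.5 and 8.43 after cisplatin (-1.32 ± 0.24, adjusted p = 0.0786). Each control library taken as a replicate gave an adjusted p of 0.0197 and DESeq2 gave 0.0377. The 6 adipocyte markers summed to 510 and 499 RPKM in lung controls and 130 and 55.0 after cisplatin, 2 of the 6 called lower, and Adipoq read 92.3 and 93.4 against 18.6 and 7.27. Their part in the Cyp2e1 value was not tested. Cyp1a1, the classical target of the aryl hydrocarbon receptor, was at 2.91 and 2.98 RPKM in lung controls and at 6.17 and 94.1 after cisplatin (4.08 ± 1.52, adjusted p = 0.320). Its fold was set by 1 library: without cisplatin replicate 2, in a fit over all organs that takes the lone samples to vary like the other groups, the log2 change was 1.03.

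The main lung P450 genes lay slightly above their controls without passing. Cyp2f2 was at 1221 and 1202 RPKM against 1224 and 1688 after cisplatin (0.26 ± 0.22, adjusted p = 1.0). Cyp4b1 went from 263 and 261 to 337 and 327 (adjusted p = 0.952), and Cyp2b10, a target of the constitutive androstane receptor, from 155 and 154 to 226 and 223 (adjusted p = 0.534). Cyp2a5 read 41.3 and 43.2 in controls and 63.9 and 88.1 after cisplatin (0.82 ± 0.24, adjusted p = 0.304), the same side as in kidney, and the difference between the kidney and lung responses was 0.84 (adjusted p = 0.983). Cyp2j5, the highest P450 message of kidney, read 2.02 and 2.03 in lung controls against 0.331 and 0.00526 after cisplatin and was not called. Beside it, the 8 proximal tubule markers summed to 65.5 and 65.8 RPKM in lung controls and 8.95 and 2.91 after cisplatin, and their part was not tested. All 6 B-cell markers were called lower in lung, from 165 and 167 to 52.3 and 37.0 summed RPKM.

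In spleen 0 of 67 tested P450 genes were called, against 0.181% of all genes. An unadjusted p under 0.05 was found for 4 (5.97%), against 4.34% of all genes. Cyp4f18 was at 27.5 and 27 RPKM in controls and 43.2 and 54.9 after cisplatin (0.88 ± 0.19, adjusted p = 0.932), both libraries above the controls. Cyp1a1 read 0.0371 and 0.0423 in controls and 0.156 and 0.790 after cisplatin, Cyp17a1 0.289 and 0.251 against 0.716 and 0.617, and neither passed. Cyp2e1 went from 0.886 and 0.568 to 14.2 and 1.25. In the library with 14.2, cisplatin replicate 1, the 8 hepatocyte markers summed to 222 RPKM, against 30.5 in the other cisplatin library and 30.4 and 19.2 in the controls, and adipocyte markers to 103 against 7.66 in the other. With the other cisplatin library left out, 6 P450 genes were called higher, Cyp2a4, Cyp2a5, Cyp2a12, Cyp2b9, Cyp2e1 and Cyp3a13. All 7 pancreatic acinar markers were called higher, from 7.40 and 6.73 to 1513 and 1154 summed RPKM. The median log2 change over the tested P450 genes was 1.37 against 0.017 over all, and the part of RNA from neighbouring organs was not tested.

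**Figure D3:**
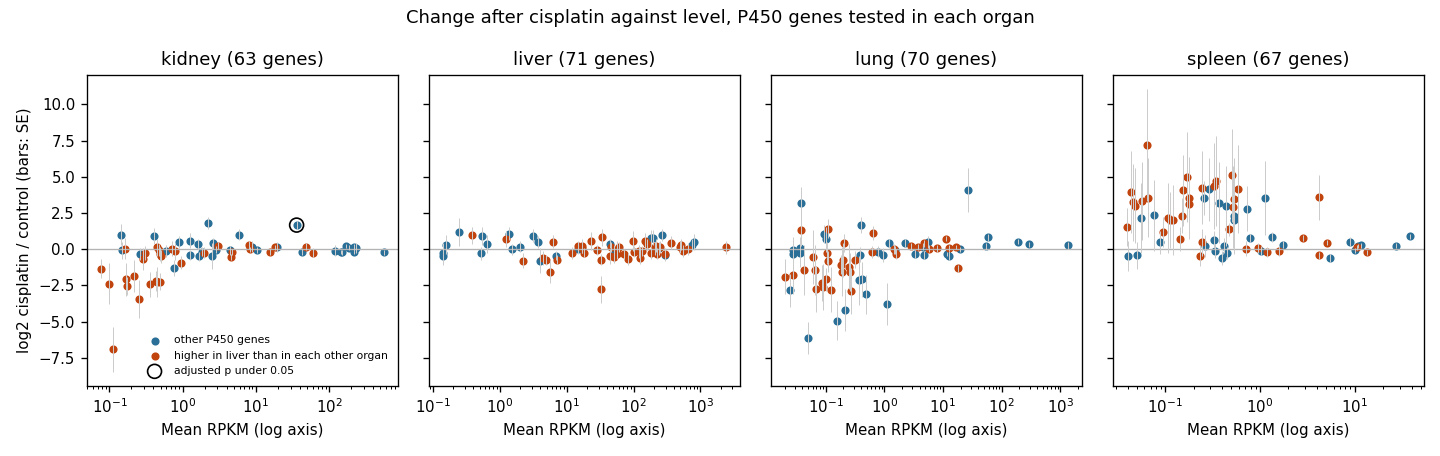
Log2 change after cisplatin (vertical axis, log2 cisplatin minus control from the edgeR fit) against mean RPKM (log axis) for each tested P450 gene, 1 panel per organ, with bars of 1 SE, genes higher in control liver than in each other organ in a second colour, and a ring around the called gene. The ringed gene is Cyp2a5 in kidney at 1.66, Cyp1a1 in lung stands at 4.08 with a wide bar, and Cyp4f18, the gene of highest control RPKM in spleen, stands at 0.88.

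The difference in response between organs was tested as an interaction in the fit over all organs, against 0. None of 88 P450 genes passed for kidney against liver, where 0.0576% of all genes did, or for kidney against lung, where 0.105% did. An unadjusted p under 0.05 was found for 2 (2.27%, against 7.12% of all genes) and for 6 (6.82%, against 7.37%). The largest fitted differences were in genes with few reads in 1 of the organs, such as Cyp2j11, listed at 0 in both liver controls, and Cyp3a57. Their adjusted p-values lay between 0.424 and 0.990 for the 6 largest of each pair.

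Genes that act with or upstream of the P450 enzymes were listed by function. In kidney, 2 of the 12 tested liver and PAR bZip factors rose and 2 fell. Cebpb, a stress-responsive C/EBP factor, went from 3.30 and 3.12 to 18.7 and 13.1 RPKM (2.36, adjusted p = 0.0128), and Nfil3, which represses PAR bZip targets, from 8.20 and 9.94 to 40.8 and 38.2 (2.17, adjusted p = 0.00848). The PAR bZip activators Dbp and Hlf, which drive daily P450 expression, fell by 1.62 and by 1.39 (adjusted p = 0.0350 and 0.0455). Of 15 tested nuclear and xenobiotic receptors and their regulators, Tiparp, a repressor of the aryl hydrocarbon receptor, rose in kidney by 1.30 (adjusted p = 0.0408), and Ppara, the receptor behind Cyp4a expression, fell by 1.15 (adjusted p = 0.0377).

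In lung, Ppara and the oestrogen receptor Esr1 fell, by 2.01 (adjusted p = 0.0315) and by 2.77 (adjusted p = 0.0189), and in liver and spleen no gene of either list passed. None of the 8 redox partners and none of the 10 genes of haem synthesis and breakdown passed in any organ in the main fits. In kidney, Hmox1, which breaks down haem, read 14 and 71.3 RPKM in controls and 863 and 312 after cisplatin, and Alas1, the first enzyme of haem synthesis, 42.2 and 39.4 against 76.6 and 66.6 (0.87, adjusted p = 0.0738). Both libraries of either gene lay above their controls without passing the threshold in the main fit. Over 11 settings, some with a library left out, the Hmox1 change ran from 2.91 to 5.50 on the log2 scale. Both genes passed in some of these settings, so their standing depends on such choices.

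Excision repair on the P450 genes was read from XR-seq as a rate, in RPM (reads scaled to the reads on genes of the library) per 1000 GG dinucleotides of the strand. On the transcribed strand (TS) the median over the 97 genes was 6.70 in liver, 0.840 in kidney, 0.177 in lung and 0.111 in spleen. On the non-transcribed strand (NTS) it was 1.14, 0.402, 0.102 and 0.107. The P450 genes took 0.166 to 0.168% of the TS reads in liver and 0.057 to 0.075% in the other organs. In Damage-seq the medians were near one another, at 6.27 on the TS and 9.13 on the NTS of liver, 6.98 and 7.69 in kidney, 7.26 and 8.20 in lung, and 8.28 and 7.96 in spleen. Rates of both assays are scaled to the reads of each library, so they do not carry a difference between organs in total repair or damage. The paper reports most cisplatin adducts in kidney and fewest in spleen.

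Compared between organs with edgeR (test against 0), 47 of 91 P450 genes (51.6%) had more TS repair in liver than in each other organ, against 13.0% of all genes. The count was 29 without liver replicate 1. The median log2 difference of the tested members was 2.47 against kidney, 4.33 against lung and 4.72 against spleen, while over all genes it was 0.056, 0.124 and 0.044. Of the 97 genes, 40 were higher in liver both in RNA and in TS repair, 7 in RNA only, 7 in repair only and 43 in neither. A gene with too few reads to test in an assay was counted as not higher in it. The same overlap was not counted over all genes. In the Cyp2c cluster 12 of 14 genes had more TS repair in liver, in the Cyp3a cluster 4 of 8, and in the chromosome 7 cluster 8 of 13.

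**Figure D4:**
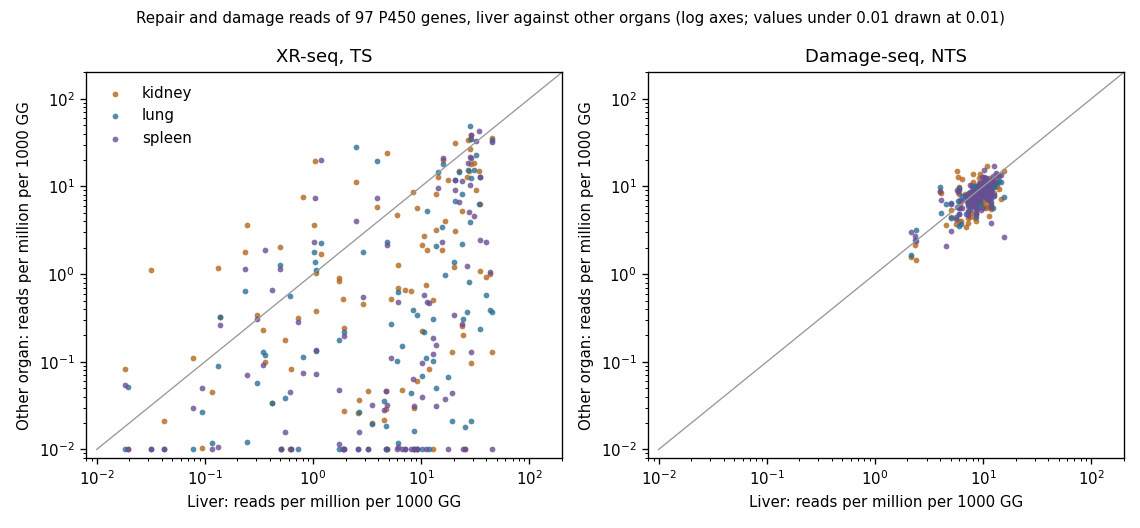
Rate in kidney, lung or spleen (vertical axis, colour) against the rate in liver (horizontal axis) for each of the 97 P450 genes, as the mean of 2 libraries in RPM per 1000 GG, on log axes with the line of equal rates, for XR-seq TS on the left and Damage-seq NTS on the right. Most XR-seq points lie below the line, higher in liver, while the Damage-seq points lie close to it.

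Some P450 genes were repaired more in another organ than in liver. Cyp4b1 had a TS rate of 28.4 and 28.5 in lung, 8.01 and 14.7 in kidney, 4.66 and 3.47 in spleen and 2.72 and 2.23 in liver, so liver was lower than lung by -3.23 ± 0.33 (log2 ± SE, adjusted p = 6.54e-06). Cyp27b1 was at 20.7 and 27.1 in kidney against 4.46 and 5.18 in liver (-1.93 ± 0.53, adjusted p = 0.0113). Its kidney RNA was near 1 RPKM in controls and higher in both cisplatin libraries, the treatment of all XR-seq mice. Cyp4f18 was at 20.1 and 19.9 in spleen and between 0.971 and 2.89 elsewhere. Cyp2s1 was at 19.6 and 19.4 in kidney and 1.01 and 1.09 in liver, and at 0.725 and 2.05 in lung, where its RNA was highest. Cyp26b1 was at 18.2 and 20.5 in lung against 3.87 and 3.97 in liver (-2.01 ± 0.28).

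The genes repaired most in liver were not those with most RNA. The highest TS rates were those of Cyp1a2, the caffeine-oxidising P450, at 56.0 and 34.8, Cyp20a1 at 45.5 and 45.2, Cyp8b1 at 37.2 and 49.9 and Cyp17a1 at 40.2 and 39.9. On the NTS of liver, Cyp8b1 and Cyp17a1 had mean rates of 50.5 and 44.0, and neither was called with more repair on the TS. Cyp1a2 and Cyp20a1 had mean NTS rates of 2.46 and 1.48 and were so called. Cyp20a1 had its TS rate with 8.54 and 7.26 RPKM in control liver, and that rate lay between 29.5 and 45.5 in all 8 libraries. Cyp39a1 reached 38.8 and 31.6 with 11.8 and 18.2 RPKM. Cyp2e1, at 2772 and 1869 RPKM, had TS rates of 17.1 and 15.8. Cyp2c69 read 467 and 501 RPKM and 2.65 and 1.25 in TS repair, and Cyp3a41a 114 and 88.3 RPKM and 0.524 and 0.716. The paper filtered reads at a mapping quality of 20 in XR-seq and in RNA-seq alike. These genes have near-identical neighbours, and the part of lost reads in either assay was not tested.

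Genes with a low message and a high repair rate were Cyp2j9, at 31.6 and 29.7 in liver with 0.959 and 0.772 RPKM, Cyp46a1, the brain cholesterol 24-hydroxylase, at 18.4 and 22.3 with 0.721 and 1.20 RPKM, and Cyp2j8, at 6.43 and 5.80 with 0.0485 and 0.0 RPKM. Cyp2f2, with the highest RNA of any P450 gene in lung, had TS rates of 1.12 and 1.65 there, while its liver rates were 18.0 and 22.6 with 192 and 282 RPKM. Cyp2b10 likewise read 155 and 154 RPKM in lung with TS rates of 2.72 and 1.67, and 36.1 and 40.2 RPKM in liver with 23.7 and 23.5. For both genes the TS rate was called higher in liver than in lung, by 4.17 ± 0.96 (adjusted p = 0.00328) for Cyp2f2 and 3.71 ± 0.69 (adjusted p = 0.000743) for Cyp2b10. Their RNA, scaled by TMM, was not called between these organs, at -1.20 ± 0.56 (liver minus lung, adjusted p = 0.143) for Cyp2f2 and -0.88 ± 0.33 (adjusted p = 0.0967) for Cyp2b10. Across the 97 genes Spearman's rho between control RPKM and TS rate was 0.645 (kidney), 0.574 (liver), 0.504 (lung) and 0.697 (spleen). With the RPKM of cisplatin libraries, the treatment of all XR-seq mice, it was 0.701 (kidney), 0.583 (liver), 0.612 (lung) and 0.495 (spleen). Both are descriptions in which genes share libraries, clusters and GG content.

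**Figure D5:**
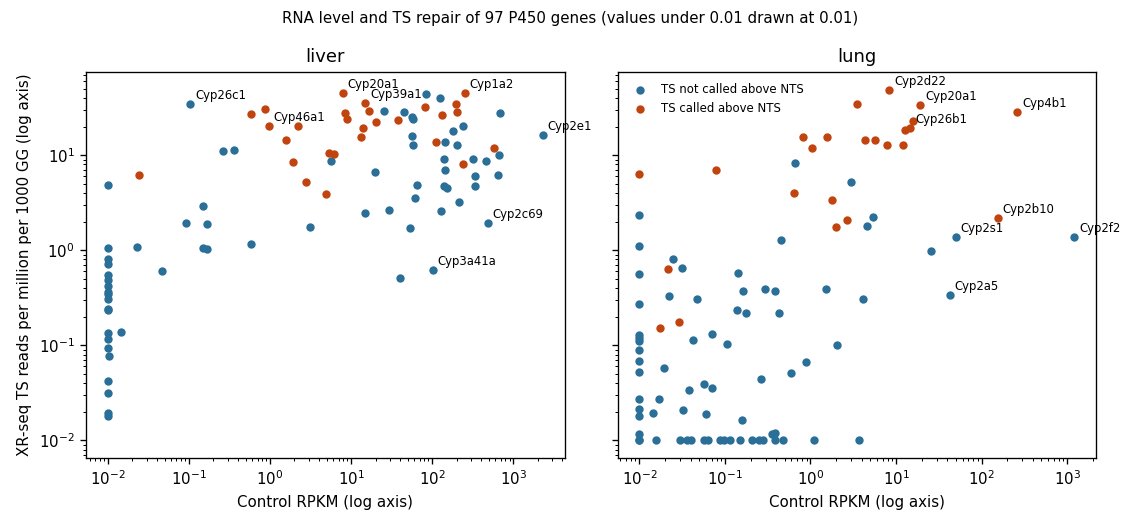
TS repair rate in XR-seq (RPM per 1000 GG, log axis) against control RPKM (log axis) for each of the 97 P450 genes in liver and in lung, coloured by whether the TS was called above the NTS in that organ. Cyp2f2 and Cyp2b10 lie low for their RNA in lung, as Cyp2c69 and Cyp3a41a do in liver, and Cyp20a1 lies high for its RNA in both.

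Genes of sterol, vitamin D and retinoic acid metabolism showed several patterns of TS repair. Cyp7a1 was read at 32.9 and 17.8 in liver and had no TS read in kidney and spleen and a rate of 0.0358 and 0.0 in lung. Cyp17a1 was at 40.2 and 39.9 in liver and at most 4.00 in the other organs. Cyp51, made in every cell that synthesises cholesterol, lay between 15.6 and 23.3 in all 8 libraries. Cyp27a1 was at 32.0 and 25.5 in liver and 23.1 and 19.6 in spleen, and Cyp2r1 at 22.0 and 25.7 in liver against 4.42 and 6.13 in kidney. Cyp24a1 was at 7.22 and 8.08 in kidney and at most 1.25 elsewhere, the same organ as its RNA. Cyp26c1, a retinoic acid hydroxylase of the embryo, was at 39.1 and 30.1 in liver and 46.5 and 38.7 in spleen with at most 0.126 RPKM in any control library. In spleen its reads were on the TS, with 286 TS and 6 NTS reads and 774 and 37 (5.04 ± 0.89), whereas in liver there were 1190 and 601 and 731 and 562 (0.83 ± 0.73).

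Abundant P450 messages of kidney differed in how their repair compared with liver. Cyp4a14 was at 15.3 and 8.14 in kidney and 13.6 and 22.0 in liver, and at most 0.0988 in lung and spleen. Cyp2j5, the most abundant P450 message of kidney, was at 2.60 and 6.80 there and 5.80 and 6.17 in liver, which did not differ beyond their spread (0.73 ± 0.79, adjusted p = 0.504). Cyp2j11, with 164 and 170 RPKM in kidney and no read in liver controls, was at 2.97 and 4.29 in kidney and 0.108 and 0.379 in liver (-3.53 ± 1.10, adjusted p = 0.0213). Cyp2d26 was at 30.1 and 23.3 in kidney and 31.5 and 24.7 in liver, with 4.30 and 3.62 in lung and 13.5 and 7.51 in spleen, where its RNA was under 1 RPKM. Cyp2j11 and the spleen values of Cyp26c1 were chosen after their values were seen.

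The strands were compared within each organ in edgeR with the GG count of each strand as an offset and the library as a block. Genes with more repair on the TS numbered 24 of 93 tested P450 genes in kidney (background 55.4% of all genes), 28 in liver (50.4%), 24 in lung (58.1%) and 20 in spleen (56.8%). Members had fewer reads than other genes, a median of 103 XR-seq reads per gene against 1024.5 over all genes in kidney, 990 against 1734 in liver, 39 against 1818.5 in lung and 30 against 857 in spleen. The shares of all genes above are those of the joint fit, and none is given for fits of 1 organ alone. In such fits the kidney count went to 10, and the liver count rose to 60. It was 11 without liver replicate 1 and 12 without liver replicate 2, and the lung count was 14 without lung replicate 1. In all 4 organs 11 genes had more repair on the TS: Cyp2u1, Cyp7b1, Cyp27a1, Cyp4f16, Cyp39a1, Cyp26b1, Cyp2j9, Cyp2j6, Cyp4f13, Cyp4v3 and Cyp20a1. The share of all genes called in every organ is not given, so this count has no background.

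In liver the largest strand differences were those of Cyp2j8, with 986 TS and 5 NTS reads in one library and 709 and 9 in the other (6.86 ± 1.24), Cyp39a1 with 9708 and 155 against 6312 and 129 (5.67 ± 0.88), and Cyp3a59 with 1823 and 33 against 1221 and 31 (5.52 ± 0.85). Cyp20a1 had 5059 TS and 211 NTS reads in one liver library and 4013 and 132 in the other (4.95 ± 0.27). In kidney, Cyp4a14 had 134 TS and no NTS reads in one library and 108 and 3 in the other, Cyp2d9 had 33 and 21 TS reads with no NTS read, and Cyp3a59 had 12 TS reads in 1 library only. A count of 0 allows up to 3 reads, for counting error only, so no fold is given for these genes. In lung, Cyp2j9 had 1090 TS and no NTS reads and 602 and 8, while Cyp2d9 had 25 and 5 TS reads and Cyp2b13 had 9 and 18, without an NTS read. In spleen the largest were Cyp4f14 (8 and 114 TS reads, no NTS read), Cyp2j9 (35 and 217 TS reads, 0 and 2 NTS reads) and Cyp4v3 (495 and 1501 TS reads, 2 and 43 NTS reads).

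A few genes had more XR-seq reads on the NTS. Cyp2t4 did so in all 4 organs, with 44 TS and 780 NTS reads in one liver library and 25 and 584 in the other, and its NTS is the TS of the overlapping gene Egln2. Cyp24a1 did so in spleen, where it overlaps Pfdn4. Cyp4a32 in lung had 21 TS and 468 NTS reads and 8 and 240, and Cyp8b1 in lung had no TS read and 155 NTS reads in one library and 6 and 95 in the other, with no opposite gene annotated over either. Cyp2d22 was read on both strands alike in liver, with 1200 TS and 987 NTS reads in one library and 763 and 689 in the other (0.34 ± 0.30), and with more on the TS in lung, with 2116 and 1078 and with 1473 and 852 (1.00 ± 0.30).

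Damage on the NTS, the strand on which transcription-coupled repair does not act, was compared between organs as a reference. Counts were scaled between libraries by TMM, so total adducts of the organs were not compared. None of 96 P450 genes differed in 1 direction between liver and the kidney, the lung and the spleen alike, where 0.00987% of all genes did. Against kidney 17 (17.7%) differed, 15 higher and 2 lower in liver, with a background of 19.0%, and against lung and spleen none did, where 0.0148% of all genes did in each. An unadjusted p under 0.05 was found for 4 (4.17%, against 5.81% of all genes) and for 5 (5.21%, against 5.57%). The median log2 difference of the P450 genes was 0.38 against kidney, 0.18 against lung and 0.09 against spleen. Cyp2b9 was the clearest, higher in liver than in kidney by 1.34 ± 0.24 (adjusted p = 0.000103).

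Less damage remained on the TS than the NTS in 29 of 96 P450 genes in liver (background 32.7% of all genes), 3 in kidney (20.9%), 8 in lung (27.1%) and 1 in spleen (13.1%). In liver the share was 30.2%, near the background, and in the other organs it was below theirs. Without liver replicate 1 the liver count was 11 and without replicate 2 it was 18, the lung count was 4 without lung replicate 1, the kidney count was 0 without kidney replicate 1 and 2 without replicate 2, and the spleen count was 0 without either library. Damage-seq held a median of 128 reads per P450 gene in liver, 209 in kidney, 217.5 in lung and 74.5 in spleen, against 117, 277, 216 and 71 over all genes in the same order. The liver genes with the largest differences were Cyp2d10, with 3 TS and 16 NTS reads in one library and 0 and 11 in the other, Cyp4f13, with 12 and 73 and with 11 and 35 (-2.37 ± 0.35, adjusted p = 6.32e-09), and Cyp2a12, with 5 and 21 and with 4 and 8. Cyp2b9 had 23 TS and 92 NTS reads and 23 and 59 (-1.75 ± 0.28). Cyp2c29, a major epoxygenase of liver, had 36 and 113 and 32 and 62 (-1.41 ± 0.25). Of the 46 tested genes with higher RNA in liver, 23 had less damage on the TS there, 1 in kidney, 3 in lung and none in spleen.

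Outside liver, genes with high RNA in the organ were among those with less damage on the TS, and so were genes with little or no RNA there. In kidney, Cyp4a31 had 19 TS and 46 NTS reads in one library and 27 and 42 in the other (-1.21 ± 0.34, adjusted p = 0.00424), Cyp4a10 had 24 and 54 and 40 and 48 (adjusted p = 0.0138), and Cyp2c23, the main renal arachidonic acid epoxygenase, 73 and 118 and 51 and 94 (adjusted p = 0.0387). In lung, Cyp4b1 had 38 TS and 103 NTS reads and 26 and 51 (-1.06 ± 0.28, adjusted p = 0.00143). The 3 lung genes called for damage and not for repair had a median control level of 0.0 RPKM. In spleen the called gene was Cyp2b19, with 6 and 25 and 20 and 42, listed at 0.0 RPKM in controls. The opposite, more damage on the TS, was called for 1 gene in kidney, 3 in lung and 2 in spleen, among them Cyp2f2 in spleen with 20 TS and 4 NTS reads and 41 and 8. No share of all genes is given for this direction.

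In liver, repair and damage calls on the strands overlapped in part. Of the 28 genes with more repair on the TS and the 29 with less damage there, 15 were called in both, which is 53.6% of the former and 51.7% of the latter. The same overlap is not given over all genes, so it is not read as particular to P450 genes. The 14 genes called for damage only had a median control level of 136 RPKM, the 15 called in both 20.4, and the 13 called for repair only 4.88. Cyp20a1, Cyp1a2 and Cyp2j8 were not called for damage in liver despite high TS repair. Spearman's rho between control RPKM and the log2 TS to NTS damage difference was -0.536 in liver, -0.181 in kidney, -0.114 in lung and -0.006 in spleen over 96 genes, again a description.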

How the data were processed

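P450 genes were taken by symbol and protein-coding biotype from GENCODE M21 (mm10), and each member was given a role from its subfamily. The members and gene lists were chosen with earlier results of these data known. To make the Damage-seq and XR-seq counts, the authors used cutadapt to trim, BWA to align to mm10 and Picard to remove duplicates, required a mapping quality over 20 and GG at the adduct position, and for XR-seq a length range of the excised oligomers, and deposited raw read counts per gene on the TS and NTS. RNA-seq reads from a poly-A library were aligned with STAR, filtered to remove those with a mapping quality under 20, and counted with featureCounts. The deposited values are raw counts per gene. Versions, and whether RNA counting used strand, are not given in the sources used here, so overlapping genes on opposite strands cannot be told apart in RNA-seq. A blank line, 1 per file of Damage-seq and XR-seq, was dropped.

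RNA-seq was fitted per organ with edgeR 4.0.16 in R 4.3.3 (TMM, default filter, glmTreat beyond a log2 change of 0.4) and liver controls and differences in response in 1 fit over 14 samples. XR-seq and Damage-seq were fitted with edgeR and tested against 0, the strands with the GG count and library size as offset. P-values were adjusted over all genes, and SE is the log2 change divided by the root of F. Fold changes in edgeR of genes with no read in a group depend on its prior count. Library pairs were compared by a chi-square per degree of freedom of their counts. Pairs in RNA-seq at or below 3 were summed (lung control 2.75, spleen control 2.98, the other RNA-seq pairs 39.3 to 349). Damage-seq pairs lay between 1.43 and 3.11 and XR-seq pairs between 7.26 and 32.7, and both were kept apart. DESeq2 1.42.0 was an alternative, and Python 3.11.15 with pandas 2.3.3 drew the summaries. On simulated data with a log2 change of 2, the fits recovered 79.9% of changed genes for RNA-seq in kidney (1 false call), 66% for TS repair of liver against kidney (7 false calls), 41% for repair strands in liver (3) and 78.7% for damage strands in liver (8).

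Genes were named where they passed a test, were among the 3 highest in control RPKM or the 3 largest called strand differences of an organ, or among the 6 largest differences in response, together with a list of classical P450 genes. Others are said to have been chosen after their values were seen. Alternatives were other normalizations, filters and tools, single libraries left out, a block on replicate number and other offsets.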

Additional observations from a re-analysis of the deposited data

Results flagged for a closer look

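In XR-seq, 9 P450 genes had more reads per GG on the TS than on the NTS in both libraries of one organ and fewer in both of another. They were 16.1% of the 56 members with at least 20 reads per library in 2 or more organs, against 10.8% of the 18392 such genes over all. These differences between organs were not tested. They are log2 TS to NTS ratios of the first organ minus the other. Cyp4a32 differed by 9.27 (liver against lung), Cyp2j11 by 7.71 (kidney against liver), Cyp2d11 by 6.06 (liver against lung) and Cyp4f15, a leukotriene-metabolising P450, by 5.40 (liver against spleen). Cyp2f2 differed by 4.48 (liver against kidney), Cyp4f17 by 4.20 (liver against spleen), Cyp2s1 by 3.63 (kidney against liver), Cyp4f39 by 3.23 (lung against kidney) and Cyp4f18 by 2.88 (spleen against liver). The spleen value of Cyp4f17 rests on 187 TS and 378 NTS reads in one library and 548 and 1019 in the other, while kidney, liver and lung had more on the TS. Cyp2j11 was positive in kidney, Cyp4f18 in spleen and Cyp2s1 in kidney, lung and spleen. Each was negative in liver, where they had under 1 RPKM. Cyp4f18 was negative in lung as well, where its control RNA was higher than in liver (-2.03 on the log2 scale, liver minus lung). The overlapping genes Zfp961 (Cyp4f18), Gm15883 (Cyp2f2) and Gm26707 and Gm45226 (Cyp2s1) lie on the opposite strand, and their part was not tested.

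In RNA-seq, 6 P450 genes at 1 RPKM or more lay above both controls in both cisplatin libraries of one organ and below both in another, which was 17.1% of the 35 members at that level in 2 or more organs, against 24.2% of 11773 such genes over all. The differences between organs were again not tested. Each involves lung or spleen, whose 2 control libraries lay close together. Cyp4f18 differed by 1.25 on the log2 scale (spleen against lung), Cyp4b1 by 0.67 (spleen against kidney), Cyp2f2 by 0.65 (lung against kidney), Cyp51 by 0.53 (spleen against lung), Cyp27a1 by 0.37 (kidney against spleen) and Cyp4f16 by 0.30 (spleen against kidney). None of the 6 passed the test of its own response in either organ.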

How the results depend on the processing

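Damage-seq had few reads on single genes, and XR-seq of kidney, lung and spleen had few on most P450 genes. The part of read depth in the number of strand calls was not tested. With 1 control sample in lung and spleen, the RNA responses of these organs rest on 2 cisplatin libraries. Of the RNA-seq counts after cisplatin, kidney (1 called) moved to 2 with DESeq2, 10 without the filter on low counts, 0 in 1 fit over all organs and 3 tested against 0. Lung (0 called) moved to 1 with DESeq2, 3 with each control library a replicate, 6 without the filter and 2 tested against 0. Kidney calls over all genes moved as well, from 371 higher and 410 lower in the main fit to 805 and 1089 without the filter. The difference in response of kidney and lung (0 called) moved to 2 without the filter. For the strands, fitting the libraries of 1 organ alone gave 10 genes with more repair on the TS in kidney (24 in the joint fit), 60 in liver (28) and 5 with less damage on the TS in kidney (3), and no offset for GG gave 3 with less damage in spleen (1). No share of all genes is given for these settings.

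Replicate numbers are shared between control and cisplatin, with a correlation of same-numbered deviations of 0.660 (kidney), 0.537 (liver), 0.077 (lung) and 0.128 (spleen) over 2 pairs. The paper adjusted for batch with ComBat, and its methods do not say which libraries formed a batch. In the main fits the samples were taken to share only a number. With the number as a block the count of RNA calls was 10 (kidney), 1 (liver), 9 (lung) and 0 (spleen). In kidney Cyp2a5, Cyp27b1 and Cyp1b1 were then called higher and 7 genes lower, Cyp2a12 and Cyp2b9 among them, in liver Cyp7a1 was called lower (-2.67, adjusted p = 3.46e-05), and in lung 3 were called higher, Cyp2a5 among them, and 6 lower, with Cyp2e1 and Cyp2j5. The count was 2 for the difference in response of kidney and lung. The block left 49 genes higher in control liver, 46 with more TS repair in liver and 0 with different NTS damage.

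Leaving out single libraries gave 0 to 5 calls (kidney), 0 to 3 (liver), 0 to 0 (lung) and 0 to 6 (spleen). In lung and spleen a lone cisplatin sample was taken to vary like the groups of the other organs. It gave 43 to 47 genes higher in control liver, 29 to 33 with more TS repair in liver, and 0 to 0 with different NTS damage. Genes with more repair on the TS numbered 23 to 32 (kidney), 11 to 12 (liver), 14 to 22 (lung) and 14 to 15 (spleen), and genes with less damage there 0 to 2, 11 to 18, 4 to 6 and 0 to 0 in the same order. Which spread was behind these moves was not tested. The RNA calls over all genes also moved when a library was left out, so these P450 counts have no background beside them.

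Of the log2 changes of single genes, 589 values under an alternative kept direction and side of the threshold, 35 became called, 41 lost their call and 16 turned sign, and the cause was not tested. With single libraries left out, the kidney response ran from -0.28 to 0.63 for Cyp4a10, from -0.28 to 0.77 for Cyp24a1, from -0.34 to 0.024 for Cyp4b1 and from -0.064 to 0.30 for Cyp2a4. In liver it ran from -1.04 to 1.27 for Cyp8b1, from -0.082 to 0.27 for Cyp2e1, from -0.58 to 0.0051 for Cyp1a2 and from -2.51 to 0.083 for Cyp26a1, and in lung from -0.013 to 0.50 for Cyp2f2 and from -0.19 to 0.98 for Cyp1b1. For liver against kidney controls Cyp2j5 ran from -0.040 to 0.058, and it was -0.021 with the block.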
